A study of Mus musculus with 12 samples.

Results

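Lymphocyte marker genes were followed in whole adrenal RNA: Cd3e, Cd3d and Cd3g of T cells, Cd79a and Cd79b of B cells, Nkg7 and Ccl5 of natural killer (NK) and cytotoxic T cells, Il7r of T and innate lymphoid cells, and Ptprc of all leukocytes. They were chosen by symbol, with earlier results of these data known, and make up 9 of the 24421 genes in the deposited table. All 9 had a mean of at least 2 normalised counts, the minimum set for a gene to be considered, which 16058 genes reached.

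RNA was isolated from whole adrenals, freed of surrounding fat, of 2-month-old female mice on a mixed sv129-C57BL/6 background. Abcg1 cKO mice carried 1 aldosterone synthase (Cyp11b2) Cre allele and conditional alleles of Abcg1, which encodes a sterol transporter. Abca1 cKO mice carried the same Cre and conditional alleles of the related transporter gene Abca1, and control mice carried only the Cre according to the series description, whereas the methods name littermates with either the Cre by itself or 1 of the conditional alleles. Each genotype had 4 libraries, and the Abcg1 cKO libraries were compared with the 8 control and Abca1 cKO libraries as a combined group. The Cre is driven by a gene of adrenocortical cells and not of lymphocytes, which enter a whole-gland library with the blood and the stroma.

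T cells recognise antigen through a receptor whose signal is carried into the cell by the CD3 chains, and B cells through a membrane antibody whose signal is carried by the CD79 pair. NK cells and cytotoxic T cells kill through granules and secrete the chemokine CCL5, while IL-7 keeps T cells and innate lymphoid cells alive through its receptor. CD45, the phosphatase encoded by Ptprc, sets the activity of the kinases behind these receptors and is present on macrophages as well.

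Of the 9 genes, 7 had a mean in Abcg1 cKO adrenals that was lower past a fold of 1.2, the study's own fold limit, and none was higher. Cd79a was the furthest from the combined group, with a mean of 42.1% of the mean there, and Ptprc the nearest, at 86.9%. The background is wide at these levels. Of all 16058 genes, 15.6% were lower and 11.8% higher past this fold, but of the 2342 genes whose means lay between those of Cd3e and Ccl5, the range of every member but Ptprc, 36.0% were lower. Over the wider range that takes in Ptprc, with 7047 genes, the share was 23.1%. Only the authors' mean of each group was used, since the columns of single libraries could not be assigned to samples from the labels and the authors' own comparison was set aside. No test was therefore made, no spread between animals is given, and whether a difference exceeds that spread is not known here. Control adrenals cannot be told apart from Abca1 cKO adrenals in these means. In RNA of a whole gland, fewer cells of a type and less RNA per cell cannot be told apart.

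**Figure D1:**
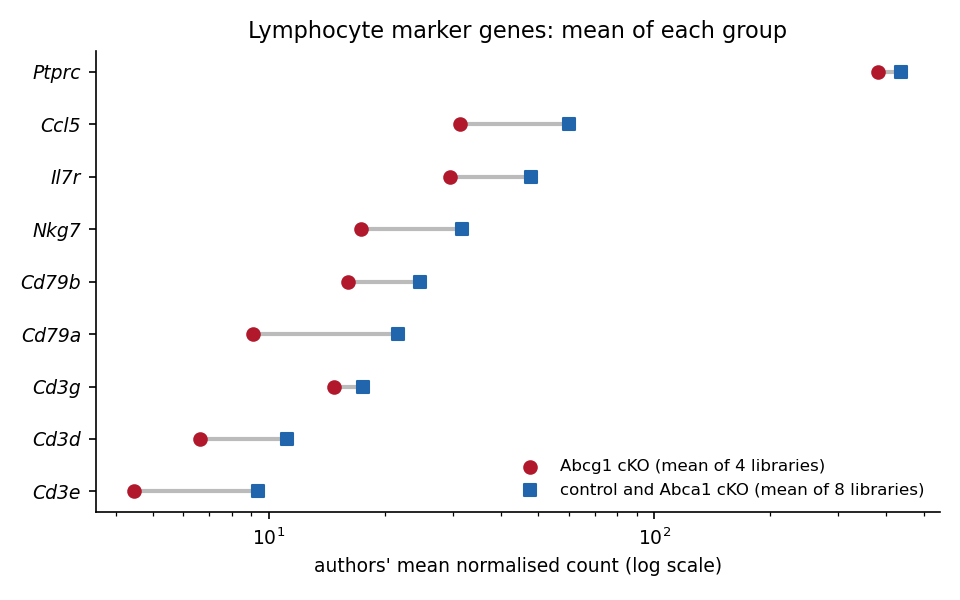
Authors' mean normalised count (horizontal, log scale) of each of the 9 lymphocyte marker genes in Abcg1 cKO (circles, 4 libraries) and the combined group of control and Abca1 cKO (squares, 8 libraries), with no error bars because only means were used. Every circle lies to the left of its square, with the widest gap for Cd79a (9.09 against 21.6) and the narrowest for Ptprc (380 against 438).

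The 3 CD3 genes lie together on chromosome 9 of GRCm38 (mm10), within 40092 bases. Cd3g spans 44969572 to 44980431 on the minus strand, Cd3d 44981769 to 44987052 on the plus strand and Cd3e 44998735 to 45009663 on the minus strand, with 1337 bases between Cd3g and Cd3d. Their promoter windows, from 250 bases before to 50 after a RefSeq start site (GRCm38.p6), are shown because these neighbours differed in ratio, and that of Cd79a because its ratio was the lowest. Each reads 5′ to 3′ on the strand of its gene, and capitals mark matches, on either strand, to AGGAAG, a core bound by ETS factors, or to the E-box CAGCTG.
Cd3e (chr9:45009562-45009861): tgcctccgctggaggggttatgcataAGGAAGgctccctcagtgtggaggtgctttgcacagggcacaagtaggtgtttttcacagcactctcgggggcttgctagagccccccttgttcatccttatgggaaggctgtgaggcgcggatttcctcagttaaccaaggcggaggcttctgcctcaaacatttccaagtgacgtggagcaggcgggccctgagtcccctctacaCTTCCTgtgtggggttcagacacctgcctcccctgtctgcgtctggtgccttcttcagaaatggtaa
Cd3d (chr9:44981536-44981835): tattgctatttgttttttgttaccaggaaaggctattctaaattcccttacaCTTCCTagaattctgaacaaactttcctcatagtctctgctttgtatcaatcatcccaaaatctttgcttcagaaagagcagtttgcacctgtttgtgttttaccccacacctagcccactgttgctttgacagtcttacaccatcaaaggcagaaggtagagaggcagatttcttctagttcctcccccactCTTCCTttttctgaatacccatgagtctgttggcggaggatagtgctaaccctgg
Cd3g (chr9:44980382-44980681): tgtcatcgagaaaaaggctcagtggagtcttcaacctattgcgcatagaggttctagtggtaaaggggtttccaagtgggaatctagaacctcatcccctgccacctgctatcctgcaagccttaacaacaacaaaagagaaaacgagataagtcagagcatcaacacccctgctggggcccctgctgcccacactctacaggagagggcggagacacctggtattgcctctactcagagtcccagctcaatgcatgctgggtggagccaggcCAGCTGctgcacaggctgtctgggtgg
Cd79a (chr7:24897247-24897546): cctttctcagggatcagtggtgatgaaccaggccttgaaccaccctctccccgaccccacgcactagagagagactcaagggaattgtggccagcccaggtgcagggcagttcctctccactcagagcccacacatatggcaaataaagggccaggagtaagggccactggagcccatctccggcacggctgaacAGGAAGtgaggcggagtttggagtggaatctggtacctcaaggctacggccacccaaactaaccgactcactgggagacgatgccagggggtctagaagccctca

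AGGAAG occurred 2 times in each of the windows of Cd3e and Cd3d, 1 time in that of Cd79a and not in that of Cd3g. The E-box occurred in the window of Cd3g and in 1 of both windows of Ptprc. Over all 32851 windows of the same length, 35.4% held AGGAAG and 16.3% the E-box. The windows of Nkg7, Il7r and Ptprc held AGGAAG too, and those of Nkg7 and Il7r also held TGTGGT, a core of RUNX factors, which 16.8% of all windows did. No member's window held the palindromic EBF1 motif, found in 0.904% of all, and TATAAA was found only in 1 of both Ptprc windows, against 13.6% of all. Windows of Cd79b and Ccl5 were not analysed here. The motifs were picked with the values of the genes known, and a match describes the letters and not a bound site.

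Cd3e encodes the CD3 epsilon chain, which pairs with the delta and the gamma chain. Its mean normalised count was 4.47 in Abcg1 cKO adrenals against 9.37 in the combined group. On the scale used throughout, the log2 of the ratio of the means with 1 added to each, this was -0.92. These are few reads: the normalised counts of Cd3e sum to 17.9 over the 4 Abcg1 cKO libraries and 75.0 over the other 8. An exon of Gm48719 on the opposite strand overlaps 135 bases of the exons of Cd3e, and no exon of another gene overlaps the other members.

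Cd3d, the delta chain, had means of 6.64 and 11.2, a log2 ratio of -0.67. Cd3g, the gamma chain, had means of 14.7 and 17.6, a log2 ratio of -0.24, so that it stayed just inside the fold of 1.2, which is 0.263 on the log2 scale without the added count. Of the CD3 chains, Cd3e and Cd3d were thus lower past this fold and Cd3g was not, and the difference between the chains was not tested. The mean of Cd3e was 0.303 of that of Cd3g in Abcg1 cKO adrenals against 0.533 in the combined group, and that of Cd3d was 0.450 and 0.635 of it. Summed, the 3 chains had 25.8 normalised counts in Abcg1 cKO adrenals against 38.1 in the combined group.

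Cd79a, on chromosome 7 from 24897497 to 24901858, encodes the alpha chain of the CD79 pair. Its mean normalised count was 9.09 in Abcg1 cKO adrenals against 21.6 in the combined group, a log2 ratio of -1.16, past a fold of 2, as were 1.95% of all genes. No other member passed this fold with 1 added to the means, but the plain ratio of the means of Cd3e was 2.10-fold, and with 10 added Cd79a itself was at -0.73. Cd79b, on chromosome 11 from 106311341 to 106314562, encodes the beta chain, with means of 16.1 and 24.7 and a log2 ratio of -0.59. The pair together had 54.4% of its combined-group sum in Abcg1 cKO adrenals. The mean of Cd79a was 0.566 of that of Cd79b in Abcg1 cKO adrenals against 0.875 in the combined group.

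Nkg7, on chromosome 7 from 43437138 to 43438246, encodes a membrane protein of cytotoxic granules. Its mean normalised count was 17.3 in Abcg1 cKO adrenals against 31.7 in the combined group, a log2 ratio of -0.83. Ccl5, on chromosome 11 from 83525778 to 83530518, had means of 31.3 and 60.0, a log2 ratio of -0.92. There were 1.80 counts of Ccl5 per count of Nkg7 in Abcg1 cKO adrenals against 1.90 in the combined group.

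Il7r, on chromosome 15 from 9506159 to 9529941, encodes the IL-7 receptor alpha chain. Its mean normalised count was 29.5 in Abcg1 cKO adrenals against 47.9 in the combined group, a log2 ratio of -0.68, which is also the median of the 9 genes. Over all genes considered the median was -0.0038, and over those between the means of Cd3e and Ccl5 it was -0.10.

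Ptprc, on chromosome 1 from 138062859 to 138175756, had by far the most counts, with means of 380 in Abcg1 cKO adrenals against 438 in the combined group. Its log2 ratio of -0.20 lay within the fold of 1.2. The 8 other genes summed to 129 normalised counts in Abcg1 cKO adrenals against 224 in the combined group, or 34.0 and 51.2 for every 100 counts of Ptprc. With Ptprc the sums were 509 and 662, so the ratio of the sums, -0.38, was set mostly by this gene.

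Per kilobase of the principal annotated transcript, Ccl5 had the highest level in the combined group, at 113 normalised counts, followed by Ptprc at 93.1 and Nkg7 at 36.0. Cd3e had the lowest, at 6.41, next to Cd3d at 6.90. This order depends on the length used: per kilobase of all annotated exons merged, Ptprc came to 23.9, below Nkg7 at 34.7, and Cd3g to 5.38 instead of 17.2, below Cd3d at 6.15. The spread behind neighbouring levels is not known here.

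The distance of each gene from genes of like level gives a scale for these ratios. Among the genes within a factor of 2 of its mean, 3.39% had a log2 ratio as low as that of Ccl5 and 4.63% one as low as that of Cd79a. For Nkg7, Il7r and Cd3e the shares were 7.06%, 8.24% and 9.39%. They were 12.9% for Ptprc, 15.3% for Cd79b, 16.1% for Cd3d and 39.4% for Cd3g. A fold of 1.5 was passed by the same number of members, 7, and by 5.6% of all genes, by 7.28% of those in the range of all 9 members and by 16.2% of those between Cd3e and Ccl5.

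**Figure D2:**
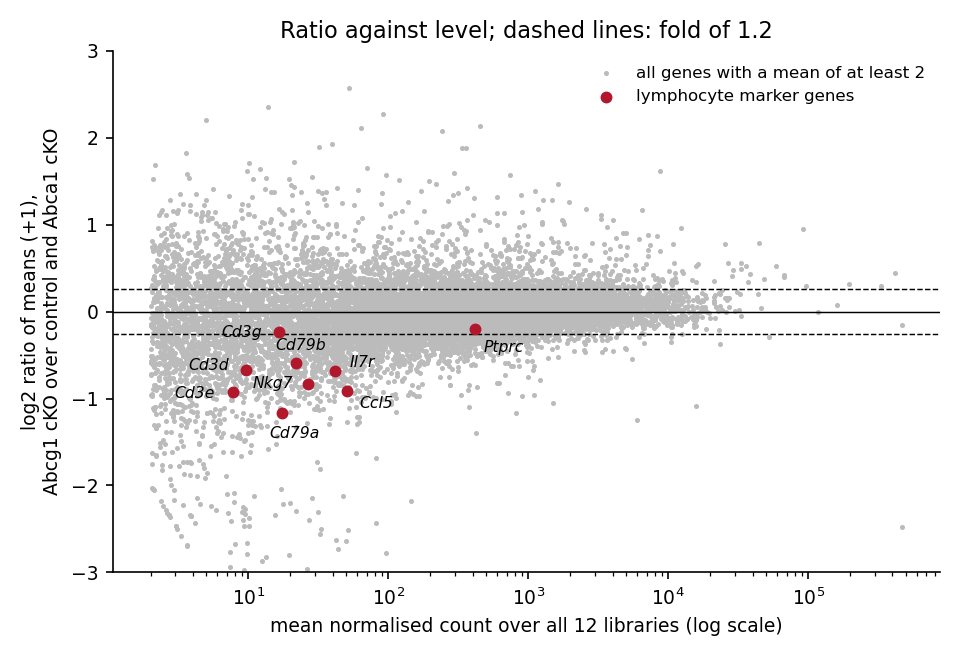
log2 ratio of the group means with 1 added (vertical, Abcg1 cKO over the 8 other libraries) against the mean normalised count over all 12 libraries (horizontal, log scale) for the genes with a mean of at least 2, with the 9 lymphocyte marker genes in red, dashed lines at a fold of 1.2, and 35 genes beyond the vertical range not drawn. The cloud widens toward low means, where 8 of the 9 genes lie, and Ptprc sits at a higher mean close to 0.

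Other genes of the same pathways were counted without the 9. Lower ratios outnumber higher ones among low genes of any kind: with means from 2 to 50, between 35.1% and 45.5% of all genes, by level, were lower past a fold of 1.2 and between 18.3% and 24.1% higher, and with means from 100 to 500, 12.4% were lower and 10.2% higher. In the 5 lymphocyte lists the lower share ran from 30.8% to 60.0%, and no list was tested. The lowest share was that of the IL-7 receptor and innate lymphoid list, where most genes had means above 100. Of all genes with means of 500 or more, 2.99% were lower and 7.48% higher. In the T cell receptor list 8 of 18 genes were lower and 1 was higher (median log2 ratio -0.24). The members with the most counts were near 0, among them Fyn (-0.12) and Plcg1 (-0.06), which also act outside T cells, while Lcp2, an adaptor of the receptor, had means of 91.8 and 118. Of the marker genes of T cells, the kinase gene Lck had means of 55.9 and 56.2 and the adhesion gene Cd2 had 10.2 and 9.33. Cd5, an inhibitory surface receptor, was at 2.66 and 5.26, which are few counts. The T cell markers therefore did not share 1 direction.

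In the B cell receptor list 8 of 16 genes were lower and none was higher (median -0.25). Ms4a1, which encodes CD20, had means of 7.65 and 15.1, and its log2 ratio of -0.90 lay between those of Cd79a and Cd79b. Pax5, the factor that sets B cell identity, had means of 2.66 and 2.25, also few counts, and its log2 ratio was 0.17. Syk (-0.09), Lyn (0.20) and Plcg2 (0.06), kinases and a phospholipase that myeloid cells share, were near 0, as was Ebf1 (0.02).

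Among NK and cytotoxic granule genes 9 of 15 were lower and 1 was higher (median -0.42). The granule proteases Gzma and Gzmb had means of 30.0 and 18.4 in Abcg1 cKO adrenals against 50.2 and 32.3 in the combined group, and the pore-forming Prf1 had 8.11 against 10.6. The NK receptor gene Ncr1 was at 11.2 against 15.3, and Klrb1c, another NK receptor gene, was the higher one, at 32.3 against 25.0. Of the IL-7 receptor and innate lymphoid list 4 of 13 genes were lower and 1 higher (median -0.17), the higher one being Il1rl1, the IL-33 receptor, at 15.3 against 11.8. Gata3, which chromaffin cells also use, was at 330 against 345. Of 15 genes for chemokine receptors and lymphocyte trafficking 6 were lower and 3 higher (median -0.11), with the chemokine receptor gene Cxcr4 at 547 against 438.

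**Figure D3:**
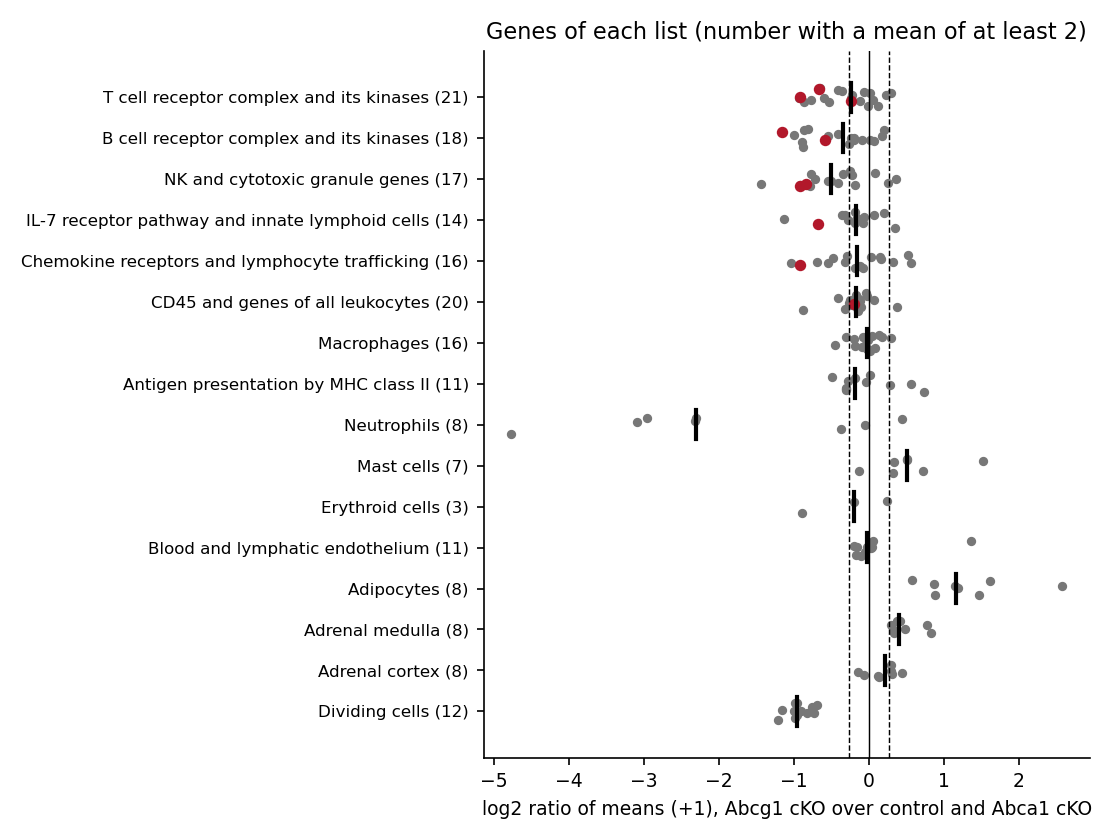
log2 ratio of the group means with 1 added (horizontal, Abcg1 cKO over the 8 other libraries) for each gene with a mean of at least 2 in 16 gene lists, with the 9 lymphocyte marker genes in red, black bars at list medians, dashed lines at a fold of 1.2, and any gene listed at 0 in a group drawn at the ratio that the added 1 gives. The lymphocyte lists straddle 0 with medians from -0.50 to -0.15, the macrophage list is centred at -0.02, and adipocyte and dividing cell genes lie to either side.

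Genes of leukocytes at large and of macrophages had list medians nearer to 0 than the median of the 9 genes, -0.68. Most of them had means above 100, where ratios spread less. With means from 100 to 500, 12.4% of all genes were lower past a fold of 1.2 and 10.2% higher. With means of 500 or more, 2.99% were lower and 7.48% higher. The IL-7 receptor and innate lymphoid list had a median as near to 0 as the leukocyte list, at -0.17. Besides Ptprc, 3 of 19 genes of all leukocytes were lower past a fold of 1.2 and 1 was higher (median -0.17), with Coro1a, an actin-binding protein of leukocytes, at 558 against 617. Of 16 macrophage genes 2 were lower and 1 higher (median -0.02), and C1qa, a complement gene of macrophages, was at 2035 against 1970. In the list of MHC class II presentation, which B cells, dendritic cells and macrophages share, 5 of 11 were lower and 3 higher, with H2-Aa at 3325 against 4114. The list also holds dendritic cell genes that are not class II genes. The 3 higher ones were of this kind, Flt3 (0.56), Xcr1 (0.28) and Cd209a (0.74), while Itgax (-0.49) was lower. No difference between these lists was tested.

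Genes of some other cells of the gland and its blood also differed between the group means, while most endothelial genes did not pass the fold of 1.2. Of all genes, 15.6% were lower and 11.8% higher past this fold. Of 8 neutrophil genes, all with means below 50, 6 were lower and 1 was higher, Lcn2 at 7.34 against 5.15. Among the lower were S100a8 at 3.95 against 37.6 and S100a9 at 7.96 against 43.2. Mpo was listed at 0 in Abcg1 cKO adrenals and at 26.3 in the combined group. The neutrophil marker Retnlg was at 3.21 against 3.38. Of all genes with means from 2 to 50, by level, between 35.1% and 45.5% were lower and between 18.3% and 24.1% higher. The 12 genes of dividing cells were all lower (median -0.96), among them Mki67 at 237 against 443. All 8 adipocyte genes (median 1.16) and all 8 medulla genes (median 0.40) were higher, with Adipoq at 2818 against 1019 and Th at 14984 against 8765. Of 11 endothelial genes 1 was higher (median -0.02), Lyve1 at 152 against 58.6. Of 8 cortex genes 4 were higher (median 0.22). Globin genes were listed at 0 in both groups, and whether this means that their RNA was absent is not known here. The erythroid gene Alas2 was at 224 against 258, and 1 of 3 erythroid genes was lower. Some genes outside these lists were lower as well. Among them were Apoa1 (log2 ratio -3.83) and Cps1 (-3.29), genes typical of liver, and the ribosomal RNA gene Rn45s (-2.47). They were picked after their values were seen, and liver and ribosomal RNA genes were not counted as lists. The part of any of these, or of blood, fat, medulla or dividing cells, in the lower lymphocyte markers was not tested.

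The sums of the group means were 18889571 normalised counts for Abcg1 cKO and 18311615 for the combined group. The depth of single libraries is not known from these means. Abcg1, measured over the whole gene, had a mean of 250 in Abcg1 cKO adrenals against 305, and Abca1 had 10057 against 7791. Of the 8 libraries in the combined group, 4 came from Abca1 cKO adrenals. The Abca1 values therefore do not compare Abcg1 cKO with control. Genes of the receptor chains Trac, Trbc1, Trbc2, Ighm, Ighd and Igkc were not analysed here.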

How the data were processed

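RNA of 12 mouse adrenal libraries was analysed. The methods name both NovaSeq and NextSeq sequencers and do not say which library ran on which. The submitters' notes name bcl2fastq 2.20.0.422 for base calls, FastQC 0.11.9 for quality and cutadapt 4.0 for adapters, then alignment by STAR 2.7.10a on the mm10 build, gene counting by HTSeq 0.13.5 and size factor scaling by DESeq2 1.38.3. The signal values used here are the mean normalised counts of each group that the authors deposited. Another 12 columns, of single libraries, have names found in no label and were left out. A further 4 columns hold the authors' fold change, its error and p-values for the same comparison, and these were not used. The design allowed for values per library, so without them its limma fit was not run.

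From the means, log2 ratios were computed in Python 3.11.15 with pandas 2.3.3 and NumPy 2.4.6, with a pseudocount of 1, over genes with a mean of at least 2. A gene was counted as lower or higher past a fold of 1.2. The script was tested on simulated data without variation between animals. The simulated folds were set only in genes with higher means than every member but Ptprc, so recovery at low means was not tested. Low means rest on few reads, and fold changes of low genes are understated on this scale.

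The 9 genes, the 16 lists and the motifs were chosen with earlier results of these data known. All 9 are named, with the marker genes and up to 4 genes of highest mean per list. A few of these genes are not reported here. A pair of definitions were settled only after their results had been seen, and both versions are printed. The range of like means first ran over all 9 genes and was then narrowed by leaving out Ptprc, because its far higher mean drew in genes of smaller spread. Levels per kilobase were first taken over all annotated exons merged and then over the principal transcript in GENCODE, because merged exons lengthen genes with retained introns. Positions and promoter windows came from RefSeq for GRCm38, and 7 of the 9 genes had a window. Alternatives were pseudocounts of 0.1 and 10, centring, other minimum means, folds of 1.5 and 2, and ratios of sums.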

Additional observations from a re-analysis of the deposited data

How the results depend on the processing

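Of the 9 genes, 7 stayed lower past the fold with pseudocounts of 0.1 and 10, with centring and at a fold of 1.5. With no filter it was also 7, as it had to be, since all 9 had passed the filter. With a minimum mean of 10 it was 5 of 7 genes, and at a fold of 2 it was 1. The median log2 ratio of -0.68 became -0.74 with a pseudocount of 0.1, -0.42 with a pseudocount of 10, and -0.38 as the ratio of the sums, in which Ptprc has most of the counts. Without Ptprc, an alternative added after the data were seen, that ratio was -0.79. Over 43 pairs of a gene and a setting values ran from -1.24 to -0.16. None changed sign, but neither an added count nor a minimum mean can reverse a ratio, so this shows nothing about stability. Centring took off only the median of all genes considered, -0.0038. With a pseudocount of 10, 4 moved by over 1.5 times, those of Cd79a, Cd3e, Cd3d and Cd3g. The background depends on the range of means chosen, at 23.1% over the range of all 9 genes and 36.0% without Ptprc, the second range being chosen after the first was seen. No paired analysis was possible because only means of groups were used. For the same reason, leaving out each library and comparing Abcg1 cKO with control alone were not run. Depth limits Cd3e, Cd3d and Cd79a, whose means were below 10 in Abcg1 cKO adrenals.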

Other observations

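Of 7 mast cell genes 6 had a mean higher past a fold of 1.2 in Abcg1 cKO adrenals and none was lower (median log2 ratio 0.51). Of all genes, 11.8% were higher past this fold, and by level between 13.9% and 24.1% of those with means from 2 to 100 were. The proteases Cpa3, Tpsb2 and Cma1 had mean normalised counts of 56.0, 46.5 and 33.2 in Abcg1 cKO adrenals against 44.2, 27.8 and 23.0 in the combined group, while the receptor gene Kit was at 89.3 against 98.5. These are means of groups with no known spread, and no test was made.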
